A study of Homo sapiens with 10 samples.

Results

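The genes described here are the protein-coding zinc finger genes of human chromosome 19 whose symbol is ZNF followed by a number. They were taken by symbol and chromosome from a GRCh37 annotation (GENCODE release 44 lifted to that build), and a gene was kept when its deposited value was above 0 in all 10 libraries. Of the 20327 genes in the deposited tables, 241 were ZNF genes of chromosome 19, and 221 of these were kept. The libraries came from hTERT RPE-1 cells, an established wild-type line of human retinal pigment epithelium immortalised with telomerase, which had been held for 48 h in medium with 0.1% serum. In the first experiment, 3 libraries were from cells given merbarone, a catalytic inhibitor of topoisomerase II, at 200 µM for 30 min, and 3 were from cells given its vehicle DMSO for 30 min. In the second experiment, 2 libraries were from cells given merbarone at 200 µM for 2 h and 2 were from untreated cells, which had no vehicle. The series concerns RNA polymerase II pausing near promoters and DNA supercoiling. All groups share the line, the starvation and the library kit, which selects polyadenylated RNA from 150 ng of total RNA.

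ZNF genes encode proteins built from repeats of the C2H2 zinc finger, a short fold in which a pair of cysteines and a pair of histidines hold a zinc ion, and which reads a few bases of DNA. Most of those on chromosome 19 arose by tandem duplication and lie in runs of neighbouring paralogs. Many carry a KRAB domain, which recruits the scaffold protein TRIM28 and through it the histone methyltransferase SETDB1, and their known targets include transposable elements. Their mRNAs are commonly short-lived. Topoisomerase II relieves the supercoils that build up around transcribing polymerase, and merbarone blocks its cycle without trapping it on cut DNA.

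The repeat that defines the family is shown for the 5 members that passed the test at 2 h. Each line is the coding strand of the first finger in the protein that is followed by the canonical linker, 78 bases in a single exon, from the GRCh37 reference genome. The capitals mark the codons of the zinc-binding cysteines and histidines.
ZNF773: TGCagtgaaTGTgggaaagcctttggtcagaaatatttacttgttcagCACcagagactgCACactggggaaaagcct
ZNF324: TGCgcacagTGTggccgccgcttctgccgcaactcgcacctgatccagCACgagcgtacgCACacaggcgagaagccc
ZNF14: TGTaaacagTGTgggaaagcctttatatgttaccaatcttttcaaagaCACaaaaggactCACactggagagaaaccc
ZNF875: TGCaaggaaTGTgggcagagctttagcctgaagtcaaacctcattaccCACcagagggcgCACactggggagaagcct
ZNF570: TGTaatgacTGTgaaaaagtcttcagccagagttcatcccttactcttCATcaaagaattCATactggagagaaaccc
They lie on chromosome 19 at chr19:58018040-58018117 (ZNF773, plus strand), chr19:58982970-58983047 (ZNF324, plus strand), chr19:19823340-19823417 (ZNF14, minus strand), chr19:37853772-37853849 (ZNF875, plus strand) and chr19:37975182-37975259 (ZNF570, plus strand). The least alike pair, ZNF324 and ZNF14, were identical at 40 of 78 bases (51.3%), and the most alike, ZNF773 and ZNF875, at 54 (69.2%). Each unit was picked by a pattern that fixes the zinc-binding residues and the linker, so part of this likeness was set by the choice. The bases between the zinc-binding codons differed. These identities do not show how reads were assigned.

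A coding sequence with an intact frame was found for 220 members. Their proteins held 1 to 31 fingers with a median of 12, the fewest in ZNF414 and the most in ZNF91, a repressor of SVA retrotransposons. A pattern for the core of the KRAB A box was found in 179 proteins and not in 41. The median genomic span was 25199 bp, with a range of 3117 to 161590. Exons of a member shared 50-base words with other chromosome 19 ZNF genes: the median share was 0.745% of the words, 19 members exceeded 10%, and 93 members overlapped another gene, 55 of them on the same strand. How reads with several matches were handled, and whether counting used strand, is not given in the sources used here, so values of the 19 and the 93 are uncertain in that respect.

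Of the 20 genes left out, those nearest to the limit were above 0 in 9 libraries: ZNF878 with at most 13 reads in a library, ZNF418 with at most 12, ZNF296 with at most 9 and ZNF98 with at most 15. ZNF676, ZNF492 and ZNF536 were at 0 in all libraries, which allows up to 3 reads in each. Just inside the limit, 12 members had fewer than 10 reads in at least 1 library, and the median over members of the smallest read number was 105.

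Library totals recovered from the values were 26644379 to 38240706 reads in the 30 min experiment and 11962092 to 13696974 in the 2 h experiment. The experiments stood apart: the epithelial keratin KRT18 averaged 17.0 RPKM (reads per kilobase of gene, scaled to library size) with DMSO and 59.5 RPKM untreated, and BEST1 of the pigment epithelium 2.58 and 18.8 RPKM, so treatment effects are computed only within an experiment. KRT8, KRT18, BEST1, PMEL, OTX2, MITF and SERPINF1 were present in every library. KRT19, CDH1, EPCAM, TYR, TTR and LRAT were each at 0 in at least 1 library and at most 0.020 RPKM. RPE65 reached only 0.0656 RPKM and RLBP1 0.0603 RPKM. Of the mesenchymal markers, VIM lay between 560 and 1105 RPKM and THY1 between 55.3 and 80.9 RPKM. COL1A1, PDGFRB and ACTA2 were also present in every library, whereas COL1A2 was at most 0.00684 RPKM. Among leukocyte markers CD3E was at 0 in all libraries and PTPRC was at most 0.00758 RPKM, whereas CD68, which is not limited to leukocytes, lay between 17.4 and 31.0 RPKM. Nothing in the labels says that replicates were separate cultures, so p-values measure the spread between these libraries, which may be technical.

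The members were low in abundance. Their median level over the 5 control libraries was 0.334 RPKM, against 0.794 over all genes tested, 0.573 in 227 ZNF genes of other chromosomes and 1.49 in 838 other protein-coding genes of chromosome 19. These levels and the order below pool the DMSO and the untreated libraries: with DMSO alone the member median was 0.268 RPKM against 0.770 for all genes, and in untreated cells 0.421 against 0.798. The 4 most abundant members came in the same order in both control groups. The deposited RPKM values divide by a length that lay within 1% of the genomic span, introns included, for 160 members (72.4%), so a level is per kilobase of gene and not of mRNA. The most abundant member was ZNF358 at 9.98 RPKM, followed by ZNF581 (6.402), ZNF580 (5.21), ZNF579 (4.90), ZNF146 (3.95) and ZNF524 (3.45). None of these 6 proteins held the A-box pattern, and ZNF581 and ZNF580 overlap each other and cannot be told apart with certainty. In single control libraries ZNF358 lay between 8.03 and 11.95 RPKM and ZNF581 between 5.35 and 7.58, so these neighbours in the order did not overlap, while ZNF580 (4.25 to 6.67) and ZNF579 (3.87 to 6.74) did. At the other end stood ZNF578 (0.00371 RPKM, 2 to 8 reads per library), ZNF844 (0.00484 RPKM, 1 to 4 reads) and ZNF626 (0.00866 RPKM, 3 to 15 reads). In all, 36 members were above 1 RPKM and 29 below 0.1 RPKM in the pooled controls (31 and 39 with DMSO, 46 and 20 untreated).

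Per library, the median member measured 0.247, 0.322 and 0.249 RPKM with DMSO and 0.253, 0.294 and 0.251 RPKM after 30 min of merbarone. It measured 0.438 and 0.376 RPKM in the untreated libraries and 0.508 and 0.458 RPKM after 2 h. The second DMSO library was the highest of its experiment, and both 2 h libraries lay above both untreated ones. Members took 0.225% to 0.278% of all reads in the 30 min experiment and 0.318% to 0.403% in the 2 h experiment, where the untreated libraries had 0.343% and 0.318% and the treated ones 0.403% and 0.371%. In bulk RNA, more RNA per cell and more cells that express a gene cannot be told apart.

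**Figure D1:**
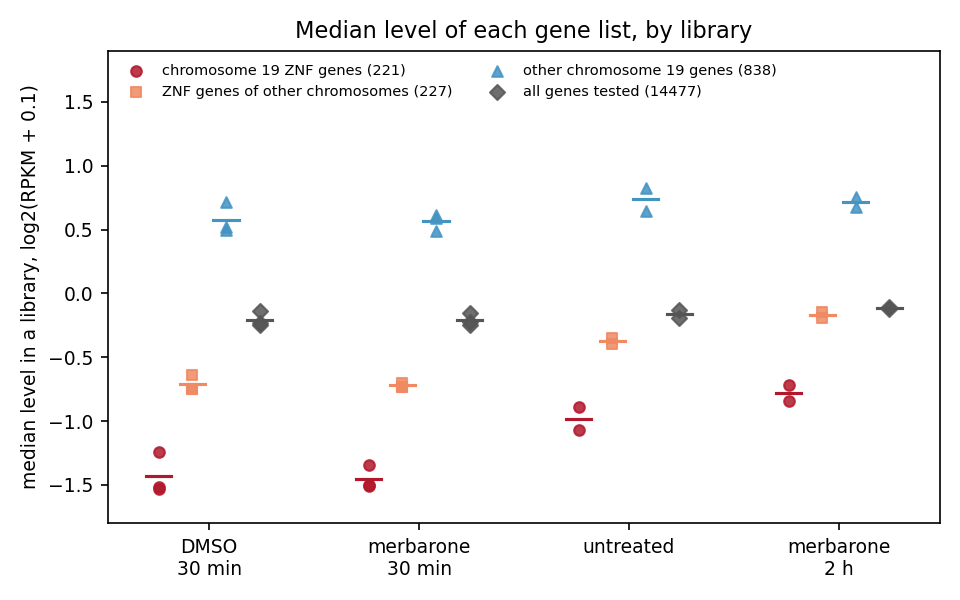
Each point is the median of log2(RPKM + 0.1) over a gene list in 1 library, the short lines are group means, and the groups are on the horizontal axis. The chromosome 19 ZNF genes lie below the other lists in every library, and in the 2 h experiment both treated libraries lie above both untreated ones.

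The 30 min comparison asks whether the members change early. No member changed detectably: of 221, 0 were called higher and 0 lower (limma on log2(RPKM + 0.1), Benjamini-Hochberg adjusted p under 0.05 over all 14477 genes tested). Among all genes, 0% were called higher and 0% lower. Without adjustment, p was under 0.05 for 0 members in limma and for 0 in voom on recovered reads, whereas limma gave 55 higher and 34 lower among all genes. With the libraries paired by replicate number, 0 members were called, and 7 were higher and 9 lower at that unadjusted p, where all genes gave 335 and 293. Treated libraries lay wholly above the controls for 1 member and wholly below for 2, where the shares among all genes were 1.40% and 1.19%. The member that stood higher was ZNF793, with 0.000897, 0.00545 and 0.00375 RPKM in DMSO against 0.00639, 0.00638 and 0.00682 RPKM. Those that stood lower were ZNF317 (1.17, 1.25 and 1.19 RPKM in DMSO against 1.14, 1.12 and 1.13) and ZNF724 (0.0769, 0.111 and 0.0754 RPKM against 0.0660, 0.0676 and 0.0684). ZNF793 had as little as 1 read in a library. These 3 were named after their values were seen.

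The median log2 fold change of the members at 30 min was -0.010, against -0.002 over all genes. The highest values belonged to ZNF324B (0.22 ± 0.16, SE), ZNF493 (0.18 ± 0.13) and ZNF223 (0.17 ± 0.13), and the lowest to ZNF460 (-0.35 ± 0.41), ZNF625 (-0.32 ± 0.19) and ZNF121 (-0.27 ± 0.28). ZNF460 measured 0.0805, 0.414 and 0.0987 RPKM with DMSO and 0.125, 0.0770 and 0.125 RPKM with merbarone, and only the second DMSO library was high; without it the log2 fold change was 0.13. ZNF121 had the same shape, with 0.619, 1.10 and 0.506 RPKM against 0.628, 0.661 and 0.440 RPKM. Between replicates of the same group, the median member differed by 0.20 (log2) from the first to the second DMSO library, a larger step than the treatment median. Leaving out 1 library moved the members' median between -0.054 and 0.058: it became positive without the second DMSO library (0.058), the first merbarone library (0.016) or the third (0.0090). Without the second DMSO library ZNF121 measured 0.018.

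At 2 h, 5 members rose (limma, adjusted p under 0.05). Each is a multi-finger protein with the A-box pattern, which was found in 179 of 220 members. They were ZNF773, ZNF324, ZNF14, ZNF875 and ZNF570, and 0 members were called lower. Of the 221 members, 2.26% were called higher, where 2.34% of all genes were called higher and 0.967% lower, so the share of called members was near the background. With each library scaled to its median, 13 members were called higher and 0 lower, and all genes gave 414 higher and 291 lower in place of 339 and 140.

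ZNF773 (ENSG00000152439; chromosome 19, 58011283 to 58029772, plus strand, 9 fingers) measured 0.438 and 0.362 RPKM untreated and 1.22 and 1.06 RPKM after 2 h. Its reads were 108 and 80 against 310 and 256, and the groups were far from overlapping. This was a log2 fold change of 1.31 ± 0.14 (SE; adjusted p 0.0187). A gene on the same strand overlaps it.

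ZNF324 (ENSG00000083812; chromosome 19, 58978423 to 58986803, plus strand, 9 fingers) measured 1.93 and 1.91 RPKM untreated and 3.92 and 4.18 RPKM after 2 h. Replicates of each group lay close together and the groups did not overlap (log2 fold change 1.04 ± 0.085, SE; adjusted p 0.01005). Its 3′ end overlaps ZNF446 on the same strand, and 35.1% of its 50-base exon words occur in other chromosome 19 ZNF genes, ZNF446 above all. ZNF446 itself measured 2.69 and 3.23 RPKM untreated and 3.44 and 3.37 RPKM treated, for which the log2 fold change was 0.20 (adjusted p 0.334).

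ZNF14 (ENSG00000105708; chromosome 19, 19821281 to 19843921, minus strand, 17 fingers) overlaps no other gene and shares no 50-base exon word with other ZNF genes of the chromosome. It measured 0.312 and 0.251 RPKM untreated and 0.642 and 0.566 RPKM after 2 h. The groups did not overlap (log2 fold change 0.89 ± 0.13, SE; adjusted p 0.0404).

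ZNF875 (ENSG00000181666; chromosome 19, 37803739 to 37860267, plus strand, 13 fingers) had the most reads of the 5 in the untreated libraries, 456 and 413. It measured 0.605 and 0.611 RPKM untreated and 1.08 and 1.03 RPKM after 2 h. Its log2 fold change was 0.71 ± 0.10 (SE; adjusted p 0.0384), and it overlaps no other gene.

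ZNF570 (ENSG00000171827; chromosome 19, 37958487 to 37979554, plus strand, 11 fingers) had the fewest reads, 42 and 48 untreated and 99 and 87 treated. It measured 0.177 and 0.226 RPKM untreated and 0.407 and 0.375 RPKM after 2 h. Its log2 fold change of 0.71 ± 0.12 (SE; adjusted p 0.0496) was at the edge of the threshold. Its 5′ end overlaps ZNF569 on the opposite strand, which measured 0.129 and 0.118 RPKM untreated and 0.256 and 0.199 RPKM treated.

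At 30 min none of the 5 was called: their log2 fold changes there were 0.06 for ZNF773, -0.010 for ZNF324, 0.07 for ZNF14, 0.05 for ZNF875 and -0.0070 for ZNF570, each with overlapping libraries. The 2 h calls of ZNF773 and ZNF324 held when any 1 library of that experiment was left out. Without the first 2 h library the adjusted p was 0.0995 for ZNF14, 0.181 for ZNF875 and 0.132 for ZNF570, and without the second 0.0538, 0.136 and 0.0818, so these 3 calls needed both treated libraries. The number of members called higher was 2 without the first 2 h library, where 2.10% of all genes were called higher, and 4 without the second (2.00% of all genes). It was 37 without the first untreated library (5.99% of all genes) and 7 without the second (2.98%).

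**Figure D2:**
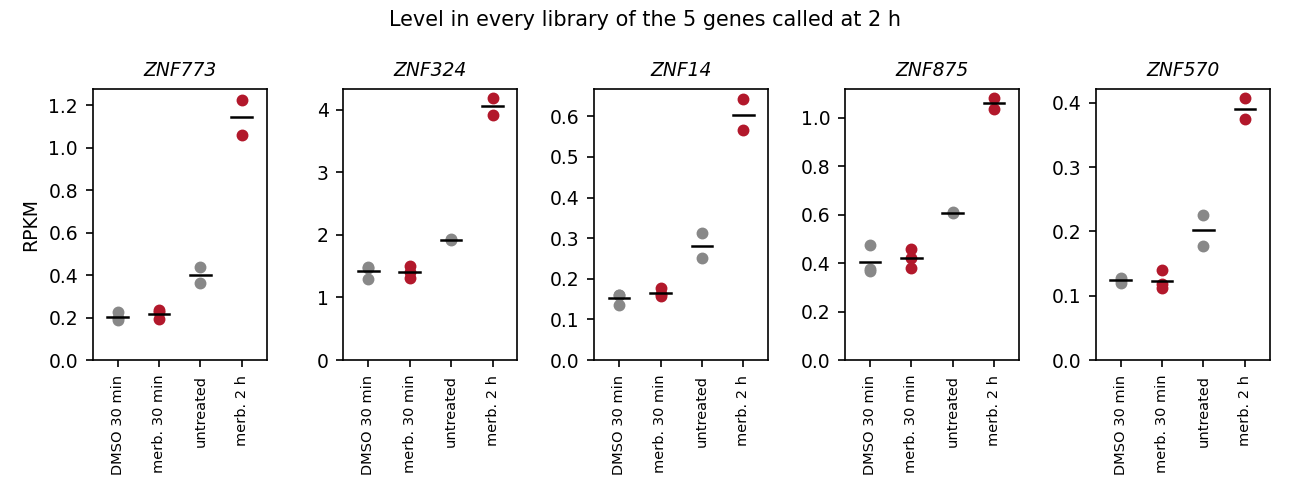
RPKM of ZNF773, ZNF324, ZNF14, ZNF875 and ZNF570 in every library, 1 panel per gene with its own axis from 0; points are libraries, lines are group means, grey marks controls and red marks merbarone. In each panel both 2 h libraries lie above both untreated libraries, and the 30 min groups overlap.

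Below the threshold, the members as a list lay to the positive side at 2 h. Their median log2 fold change was 0.14, with quartiles of -0.0033 and 0.35, against a median of 0.0030 over all genes, and 163 members (73.8%) were above 0 against 50.8% of all genes. Both treated libraries lay above both untreated ones for 114 members (51.6%) and below for 16 (7.24%), where the shares among all genes were 28.8% and 28.2%. Taking each treated library against each untreated one, the members' median difference was 0.16, 0.079, 0.27 and 0.14, all positive, and the medians over all genes were -0.0066, -0.013, 0.022 and 0.014. Replicates of a group differed by a median of -0.10 (untreated) and -0.11 (2 h), so the smallest of the 4 differences was within the spread between replicates. The ZNF genes of other chromosomes had a median of 0.17 with 14 of 227 called higher and 0 lower, while the other protein-coding genes of chromosome 19 had a median of -0.058 with 27 of 838 higher and 2 lower. The median of the ZNF genes on chromosome 19 was thus close to that of ZNF genes elsewhere. The shares called higher were 2.26% of the members, 6.17% of the ZNF genes elsewhere and 3.22% of the other chromosome 19 genes. Among all genes the share was 2.34%. No difference between these lists was tested.

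**Figure D3:**
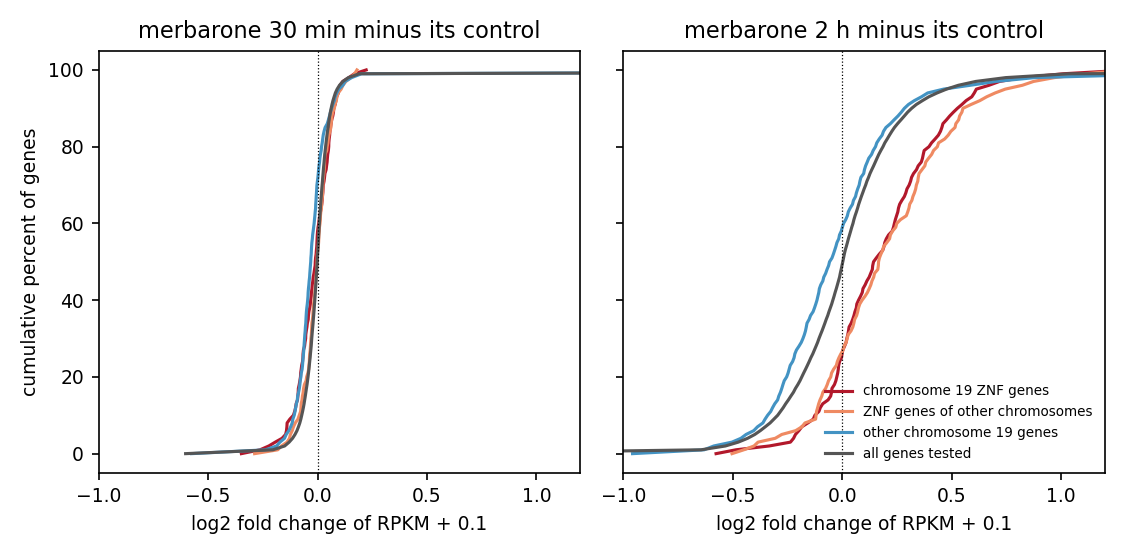
Cumulative percent of genes (vertical axis) by log2 fold change of RPKM + 0.1 (horizontal axis, drawn from -1 to 1.2) at 30 min and at 2 h for 4 gene lists. At 30 min the curves are centred near 0, with the other chromosome 19 genes a little to the left (median -0.031); at 2 h both ZNF curves lie to the right, with medians of 0.14 and 0.17, and the other chromosome 19 genes lie to the left, with a median of -0.058.

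The log scale with its added 0.1 RPKM understates the change of members this low, and 2 libraries a group leave a wide range of uncalled changes. Adding 0.01 RPKM instead gave the members a 2 h median of 0.206. The number called by limma was then 6, all higher, where 611 of 14477 genes were called, so the count barely moved. The read numbers behind the values could be recovered, and limma's voom on those reads called 35 of 218 members higher (16.1%) and 0 lower, where 7.94% of all genes were called higher and 6.10% lower. Of the ZNF genes of other chromosomes it called 55 of 224 higher (24.6%) and 7 lower. All 5 genes above were among the 35. In all 35 both treated libraries lay above both controls. The A-box pattern was found in 29 of them, near its share among all members (179 of 220). After ZNF773 (1.51 on the voom scale), the largest log2 fold changes were those of ZNF441 (1.26 ± 0.21, SE, adjusted p 0.000335), ZNF460 (1.12 ± 0.34, adjusted p 0.0319), ZNF14 (1.10), ZNF324 (1.07) and ZNF181 (1.01 ± 0.22, adjusted p 0.00433). These, like the other members named from this test, were chosen after their values were seen. ZNF441 measured 0.584 and 0.362 RPKM untreated and 1.26 and 0.983 RPKM treated. Its untreated libraries were far apart, though both lay below the treated ones. ZNF181 measured 0.620 and 0.451 RPKM untreated and 1.11 and 1.05 RPKM treated. Among the better covered of the 35, ZNF302 measured 3.49 and 2.43 RPKM untreated and 4.80 and 4.11 RPKM treated, and ZNF419 measured 2.12 and 1.78 RPKM untreated and 3.17 and 2.85 RPKM treated. ZNF529 went from 0.329 and 0.268 to 0.544 and 0.458 RPKM, and ZNF507 from 0.881 and 0.648 to 1.22 and 1.05 RPKM. In each of these 4 both treated libraries were the higher ones, with voom log2 fold changes of 0.60, 0.63, 0.74 and 0.58. The smallest change among the 35 was that of the abundant ZNF146, a protein made almost only of fingers, with 4.44 and 3.78 RPKM untreated against 5.56 and 5.31 RPKM treated.

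Base composition moved with the fold changes over all genes. The median GC of the members' spans was 43.7%, against 44.6% for all genes and 54.6% for the other chromosome 19 genes. Across 14201 annotated genes, Spearman's rho of fold change with GC was -0.336 at 30 min and -0.178 at 2 h; genes are not independent replicates, and no p is given. After each library's dependence on GC was removed, the 2 h median of the members was 0.11 against -0.029 over all genes. In that fit 39 members (17.6%) were called higher and 1 lower, where 6.82% of all genes were called higher and 7.60% lower, and 51 of 227 ZNF genes of other chromosomes (22.5%) were called higher and 6 lower. Of the 39, 34 were also called by voom, which is 97.1% of its 35. With GC removed, the other chromosome 19 genes had a 2 h median of -0.040, near the -0.029 over all genes. Of these 838 genes, 58 were called higher and 70 lower. Their 30 min median was then -0.0079 in place of -0.031.

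Along the chromosome the positive changes were unevenly spread. Members were placed in 15 runs, a run ending where the next annotated ZNF gene lay more than 1 Mb away. The 26 members from ZNF565 to ZNF573 (36.67 to 38.31 Mb) had a 2 h median of 0.34, with 25 of 26 above 0. Both treated libraries lay above both controls for 21 of them and below for 0, where the shares among all genes were 28.8% and 28.2%. For comparison, voom called 7.94% of all genes higher. Voom called 11 of these 26 higher, among them ZNF875, ZNF570, ZNF569, ZNF566, ZNF529, ZNF461, ZNF345, ZNF829, ZNF585A, ZNF565 and ZNF146. Of the 26, ZNF382 alone had a value below 0 (log2 fold change -0.016). Several of them overlap on opposite strands (ZNF569 with ZNF570, ZNF345 with ZNF829, ZNF565 with ZNF146), and reads of such pairs cannot be told apart unless counting used strand.

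The other long runs differed from this one. The 56 members from ZNF628 to ZNF446 at the end of the long arm (55.99 to 58.99 Mb) had a median of 0.20, and voom called 11 of them, ZNF773, ZNF324 and ZNF419 included. The 28 from ZNF101 to ZNF254 (19.78 to 24.31 Mb), which include ZNF91, had a median of 0.12 with 24 above 0 and 3 called by voom. ZNF91 itself measured 0.255 and 0.224 RPKM untreated and 0.323 and 0.256 RPKM treated, a log2 fold change of 0.19 that was not called (adjusted p 0.388). The 23 from ZNF653 to ZNF791 had a median of 0.11 and 2 calls, and the 34 from ZNF175 to ZNF331 a median of 0.069 and 1 call. In the 22 members from ZNF575 to ZNF180 (44.03 to 45.00 Mb) the median was -0.0012, 11 were above 0 and voom called 0. In the 14 from ZNF557 to ZNF846 the median was 0.0016 and 1 was called. As shares of the members that voom tested, its calls were 19.6%, 11.1%, 9.09%, 3.03%, 0% and 7.14% of these runs, in the order given. Over all genes voom called 7.94% higher, so several runs were near that share. The runs were described and not tested against each other.

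**Figure D4:**
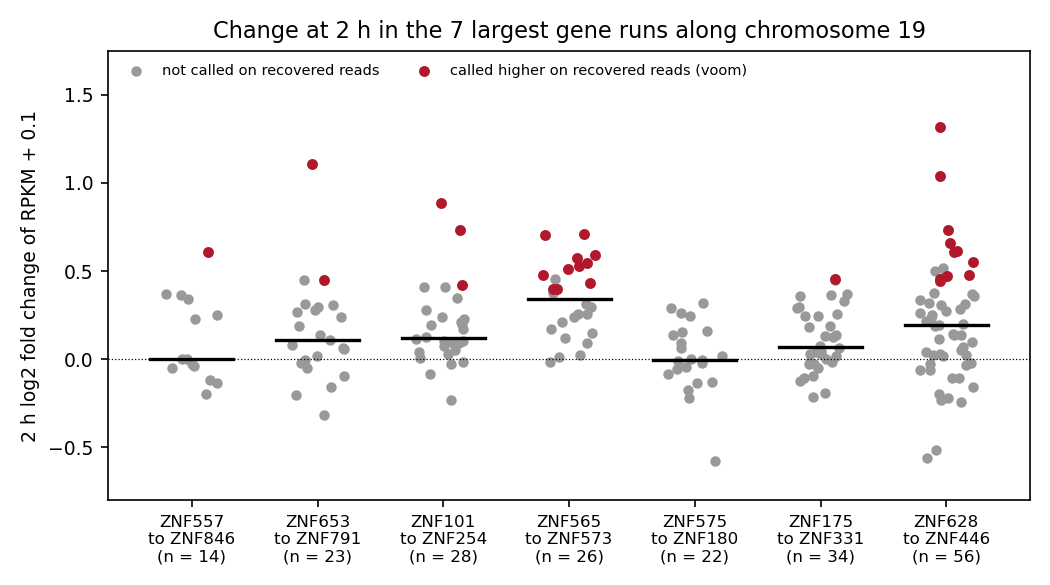
The 2 h log2 fold change of RPKM + 0.1 for each member of the 7 largest runs, in order along the chromosome; points are genes (spread sideways at random), black lines are medians, and red marks genes called higher by voom. The run from ZNF565 to ZNF573 has 25 of 26 points above 0, and the run from ZNF575 to ZNF180 has its median at 0.

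Other features of the members went with smaller differences at 2 h. Members with the A-box pattern had a median of 0.17 (136 of 179 above 0) and those without it 0.066 (27 of 41). The third of members with the longest spans had a median of 0.17 with 64 of 74 above 0, and the third with the shortest 0.095 with 45 of 74. Those lowest in controls had a median of 0.20 and those highest 0.075. The untreated libraries enter both the control level and the 2 h fold change, so this split is not independent of the change. The number of fingers gave no order, with medians of 0.11, 0.20 and 0.12 for the proteins with the fewest, an intermediate number and the most. The 128 members that overlap no other gene had a median of 0.15 and the 93 that do 0.14. The 19 members that share over 10% of their 50-base words had a median of 0.027, against 0.15 in the other 202. Of the 5 rises, 2 (ZNF14 and ZNF875) belonged to the 128.

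No member fell by the test. With the replicate number as a block, 24 members were called higher and 2 lower, where 4.51% of all genes were called higher and 2.85% lower. The lowest log2 fold changes at 2 h, named after their values were seen, were those of ZNF284, ZNF524 and ZNF543. ZNF284 measured 0.417 and 0.254 RPKM untreated and 0.230 and 0.149 RPKM treated (-0.58 ± 0.23, SE, adjusted p 0.205 in limma and 0.0629 in voom). ZNF524, among the most abundant members, measured 3.71 and 5.10 RPKM untreated and 2.46 and 3.44 RPKM treated (-0.56 ± 0.21, adjusted p 0.196 and 0.0631). ZNF543 measured 0.541 and 0.570 RPKM untreated and 0.420 and 0.306 RPKM treated (-0.51 ± 0.15, adjusted p 0.129 and 0.0980). In all 3 the treated libraries lay below the untreated ones, and none was called by limma or by voom.

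Whether the 2 h change differed from the 30 min change was tested as a contrast over all 10 libraries. It was larger at 2 h for 4 members and smaller for 0, which is 1.81% of the members, where 0.898% of all genes were called higher and 0.138% lower. The 4 were ZNF773 (difference in log2 fold change 1.25 ± 0.15, SE, adjusted p 0.0101), ZNF324 (1.05 ± 0.12, adjusted p 0.00783), ZNF14 (0.81 ± 0.13, adjusted p 0.0341) and ZNF570 (0.71 ± 0.12, adjusted p 0.0361). For ZNF875 the difference was 0.66 (adjusted p 0.0916). Duration, vehicle and experiment all differ across this contrast and cannot be told apart. Voom called 2 members higher, ZNF773 and ZNF324, where it called 0.439% of all genes higher and 0.0360% lower. Limma with the replicate number as a block called 36 members higher and 1 lower, where 5.64% of all genes were called higher and 4.36% lower. Leaving out 1 library took the limma count to between 1 and 4: ZNF324 was called each time, ZNF773 each time but without the first 2 h library (adjusted p 0.0501), and ZNF14 and ZNF570 lost the call in most of these fits. It was 1 without the first 2 h library, and 2 without the second 2 h library, any of the DMSO libraries, or the first or the third 30 min merbarone library.

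The promoters of the members were compared with those of other genes. The 250 bases before the start came from RefSeq (GRCh38.p14) for 197 members and 15843 protein-coding genes, 1 start per gene, and motifs were searched on both strands. Unlike the members, the 15843 genes, and the 214 ZNF genes below, were not limited to genes above 0 in all libraries. The lists thus differ in this filter as well, and its part in the shares was not tested. The CCAAT box (CCAAT) was found in 50.8% of the members and 34.5% of the 15843 genes, and the core of ETS factor sites (CCGGAA) in 41.1% and 19.3%. The GC box (GGGCGG) was found in 62.9% and 56.0%, and the TATA box (TATAAA) in 2.03% and 9.23%. In 214 promoters of ZNF genes on other chromosomes the shares were 42.1% for CCAAT, 36.9% for the ETS core, 57.5% for the GC box and 4.21% for the TATA box. Among the 34 voom-called members with a promoter, 17 held CCAAT, 18 the ETS core (52.9%) and 16 the GC box (47.1%). The cores of CRE (TGACGTCA), NRF1 (GCGCATGC), AP-1 (TGACTCA) and ATF4 with CEBP (TGATGCAA) sites were found in at most 4.06% of the members. A match describes the letters and is not a binding site.

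Shown are the 120 bases before the annotated start for the 3 largest rises, with those motifs in capitals, at chr19:58011163-58011282 (ZNF773, plus strand), chr19:58978303-58978422 (ZNF324, plus strand) and chr19:19843922-19844041 (ZNF14, minus strand), placed on GRCh37 by exact match.
ZNF773: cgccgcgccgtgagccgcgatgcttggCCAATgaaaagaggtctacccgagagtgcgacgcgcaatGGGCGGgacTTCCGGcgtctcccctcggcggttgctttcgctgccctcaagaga
ZNF324: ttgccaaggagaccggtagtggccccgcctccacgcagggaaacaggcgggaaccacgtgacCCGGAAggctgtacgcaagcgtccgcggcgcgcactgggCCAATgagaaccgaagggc
ZNF14: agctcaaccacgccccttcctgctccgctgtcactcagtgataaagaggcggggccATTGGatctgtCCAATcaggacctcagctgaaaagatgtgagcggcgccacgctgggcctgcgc
All 3 held a CCAAT box, and ZNF773 and ZNF324 also an ETS core. The 250-base windows of ZNF875 and ZNF570 held none of the motifs searched. For ZNF570, 187 of the 250 bases lie inside the annotated gene, so its window says little about the sequence before that annotated start.

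The machinery through which KRAB zinc finger proteins repress was described from a list of 20 genes, of which 19 were tested and UHRF1 was not matched. At both times 0 were called in either direction in limma. TRIM28, the scaffold, was abundant and measured 43.7 ± 3.19 RPKM with DMSO and 42.2 ± 3.73 RPKM after 30 min (SD, n = 3), and 40.3 ± 1.88 and 42.4 ± 2.32 RPKM at 2 h (SD, n = 2). SETDB1, the methyltransferase, measured 0.837 ± 0.0117 RPKM untreated and 1.02 ± 0.0198 RPKM after 2 h (SD, n = 2). Its log2 fold change was 0.26 (adjusted p 0.205). With p unadjusted and under 0.05, 2 of the 19 were higher and 4 lower at 2 h, where all 14477 genes gave 1855 and 1655, and the list's median was -0.017. Of the 19, voom at 2 h called HDAC1, DAXX and the HP1 protein CBX1 lower, and DNMT1 and ATF7IP higher. Among all genes it called 7.94% higher and 6.10% lower. ZNF274, a member that itself brings SETDB1 to other ZNF genes, measured 1.05 ± 0.0168 RPKM untreated and 1.00 ± 0.00687 RPKM at 2 h (SD, n = 2). The change was -0.058 on the log2 scale (adjusted p 0.761).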

How the data were processed

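Per the file headers, the authors deposited 1 table per library of RPKM by gene; the submitters' processing notes name Bowtie 1.2.0, DESeq2, edgeR, deepTools 2.4.1 and GRCh37 without roles. Read counter, annotation and strand setting are not given in the sources used here. RPKM depends on the other genes of a library. Reads were recovered from the steps of 1 read: 17673 of 17680 genes (99.96%) gave whole reads within 0.01.

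Tests used limma 3.58.1 (R 4.3.3; lmFit, eBayes with trend, two-sided) on log2(RPKM + 0.1), on the 14477 genes above 0 in all libraries, with Benjamini-Hochberg adjustment over all of them and a threshold of 0.05. Each experiment had its own fit. Voom took recovered reads with a mean of at least 10. GC correction removed a loess curve (span 0.3) per library. Scripts were tested on simulated reads with known changes, whose spread need not match that of these libraries. In the 2 h layout limma called 26 of 75 genes changed by a log2 size of 1. It called 0 of 50 changed by 0.5. Voom called 74 of the 75 and 29 of the 50. The main 2 h test can thus miss many changes of these sizes. Finger and A-box patterns were counted in translated coding sequences.

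Named members: up to 10 rises and 10 falls called with groups apart at each time (else the 3 highest and lowest values), the 6 highest and 3 lowest control levels, and members called in the contrast between experiments. Members and lists were chosen with earlier results of these data known. Same-numbered libraries of the 30 min experiment deviated together (r = 0.871, 0.643 and 0.570), so replicate numbers, from the labels, pair them. At 2 h r was 0.179 over 2 pairs. Alternatives were pseudocounts of 1 and 0.01, other filters, scalings and variance models, the replicate block, 1 fit of all libraries and leaving out each library. Promoters come from RefSeq.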

Additional observations from a re-analysis of the deposited data

Results flagged for a closer look

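For 4 members the change at 2 h differed from that at 30 min by the contrast over all 10 libraries (limma). The 2 h change minus the 30 min change, on the log2 scale, was 1.253 for ZNF773, 1.048 for ZNF324, 0.813 for ZNF14 and 0.714 for ZNF570. The direction held in every alternative run for these 4. The call held in all 22 alternatives for ZNF324 and in 20 of 21 for ZNF773, but in 10 of 21 for ZNF14 and 9 of 21 for ZNF570. Time, vehicle and experiment cannot be told apart in this difference.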

How the results depend on the processing

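At 30 min the count of called members was 0 in all 20 alternatives and the median stayed between -0.054 and 0.058. At 2 h the median was positive in all 18 alternatives, from 0.049 to 0.223, while the count of 5 depended on the setting. In the main fit 479 of 14477 genes were called, and such all-gene counts stand in brackets below. The count was 1 with no filter (87 of 16810) and 3 without trend (206 of 14477). It was 4 with a pseudocount of 1 (291 of 14477) and 6 with 0.01 (611 of 14477). A mean of at least 1 RPKM gave 8 of 50 (848 of 6620). Median scaling gave 13 (705 of 14477), and all libraries in 1 fit gave 27 (1030 of 14477). The count was 35 of 218 with voom (1886 of 13435). It was 40 with GC correction, 39 higher and 1 lower (2047 of 14201). It was 2 among members that overlap no other gene. Leaving out 1 library gave 2 to 37, the 37 without the first untreated library and the 2 without the first 2 h library. With the replicate block it was 26, 24 of them higher (1065 of 14477). The block in voom gave 64 of 218, 61 of them higher (3487 of 13435). The block with GC correction gave 64 of 221, 58 of them higher (3284 of 14201). Calls over all genes thus also rose in these settings. Over the alternatives ZNF324 kept its 2 h call in 17 of 17, ZNF773 in 15 of 16, ZNF14 and ZNF875 in 12 of 16 and ZNF570 in 11 of 16, and 0 reversed. At 2 h the numbers are only numbers, since 2 pairs cannot show pairing. With an arm of 1 library, that library is assumed to vary like the others.

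For the difference the count was 4, where 150 of 14477 genes were called, and all-gene counts again stand in brackets. It was 10 with a pseudocount of 1 (286 of 14477) and 2 with 0.01 (93 of 14477). A mean of at least 1 RPKM gave 1 of 36 (87 of 6558), and voom gave 2 of 217 (66 of 13896). The count was 1 without overlapping members. Leaving out 1 library gave 1 to 4. With the replicate block it was 37, 36 of them higher (1448 of 14477). The block in voom gave 36 of 217 (2095 of 13896), and the block with GC correction 43 of 221 (2331 of 14201). The causes were not tested. Members with few reads and 2 libraries a group limit the 2 h comparison: a member without a call is not shown to be unchanged.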
